A study of Mus musculus with 9 samples.

Results

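Retinal transcripts of 10 genes of BMP and TGF-beta signalling were measured by bulk RNA-Seq in 9 mice at P17. The genes were taken by name from the 54532 genes of the count table, and all 10 were found. They are the ligand Tgfb1, the receptors Bmpr1b, Bmpr1a, Bmpr2, Acvrl1, and Tgfbr2, the coreceptor Eng, the inhibitor Smad7, and the target genes Id1 and Id3. All 10 passed the filter on low counts, and they were tested together with the other genes of a set of 17540.

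All mice were Wild type C57BL/6, and each was 1 replicate. The 3 control mice were raised in room air. The 3 OIR mice underwent oxygen-induced retinopathy (OIR), in which pups exposed to high oxygen lose central retinal vessels and, after their return to room air at P12, grow pathological new vessels (NV) over an ischemic retina. They were given DMSO, the vehicle, by a single injection into the eye at P12. The 3 treated OIR mice went through the same model and were injected once at P12 with 32-134D, a small-molecule inhibitor of HIF-1 and HIF-2, the factors that hypoxia stabilises, at 70 ng in the sample labels (the protocol gives that number per µl). The labels also list DMSO for the control mice. Label numbers serve as names below: control mice 1, 6, and 7; OIR mice 3, 5, and 6; and treated OIR mice 2, 5, and 10. Values given without numbers keep this order.

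BMP and TGF-beta ligands bind a type II receptor, which activates a type I receptor, and the pair then phosphorylates SMAD proteins that enter the nucleus and switch on target genes. Receptors of the BMP branch act on SMAD1, SMAD5, and SMAD9 and induce the Id genes, whereas the TGF-beta type I receptor acts mainly on SMAD2 and SMAD3. In endothelial cells the type I receptor ALK1, the product of Acvrl1, and its coreceptor endoglin, the product of Eng, receive BMP ligands from the blood and restrain sprouting. Loss-of-function mutations of either gene cause hereditary hemorrhagic telangiectasia, a disease of malformed vessels. The comparisons ask how these transcripts differ in ischemic retina and whether they differ after the HIF inhibitor.

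The depth lay between 16864135 and 27213184 counts for the control mice, 18556723 and 21071371 for the OIR mice, and 16028731 and 18560178 for those treated. Crystallins, the proteins of the lens, took 15.8% of the library of treated OIR mouse 2, compared with 0.183% or less elsewhere. OIR mouse 6 and treated OIR mouse 2 also had the lowest summed counts of 5 ganglion cell markers, 60.6 and 26.9 CPM (a gene's counts scaled to a common library size), against 235 to 1105 CPM in the other 7 mice. Rod markers were high in every mouse, at 33356 to 64661 CPM for 5 genes summed. OIR mouse 6 (33356 CPM) and treated OIR mouse 2 (38719 CPM) alone lay below every control mouse (41393 CPM or more). By Xist and Y chromosome transcripts, 1 control, 1 OIR, and 2 treated OIR mice were female. Values are CPM scaled by TMM factors, and differences are log2 fold changes from edgeR's quasi-likelihood fit to all 9 mice, adjusted by Benjamini-Hochberg over the 17540 genes.

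Expressed per kilobase of gene length (RPKM), which allows levels to be compared between genes, Id3 was the most abundant of the 10 in control retina, at 32.3 ± 7.77 RPKM (SD, n = 3). Id1 (16.6 ± 1.39 RPKM) and Bmpr1a (16.3 ± 1.63 RPKM) followed and did not differ beyond their spread. Eng lay at 8.36 ± 1.30 RPKM and Bmpr2 at 6.01 ± 0.27 RPKM, with no overlap between the control mice. Smad7 (3.56 ± 0.68 RPKM), Acvrl1 (3.18 ± 0.17 RPKM), Tgfb1 (2.93 ± 2.17 RPKM), and Tgfbr2 (2.13 ± 0.79 RPKM) formed an overlapping series. Bmpr1b had the lowest mean in control, at 1.25 ± 0.15 RPKM, and its mean RPKM stood above that of Tgfbr2 in the other groups, at 2.89 ± 0.49 RPKM in OIR and 2.49 ± 0.19 RPKM in treated OIR. In each of the 3 groups the RPKM values of Bmpr1b overlapped those of Tgfbr2.

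**Figure D1:**
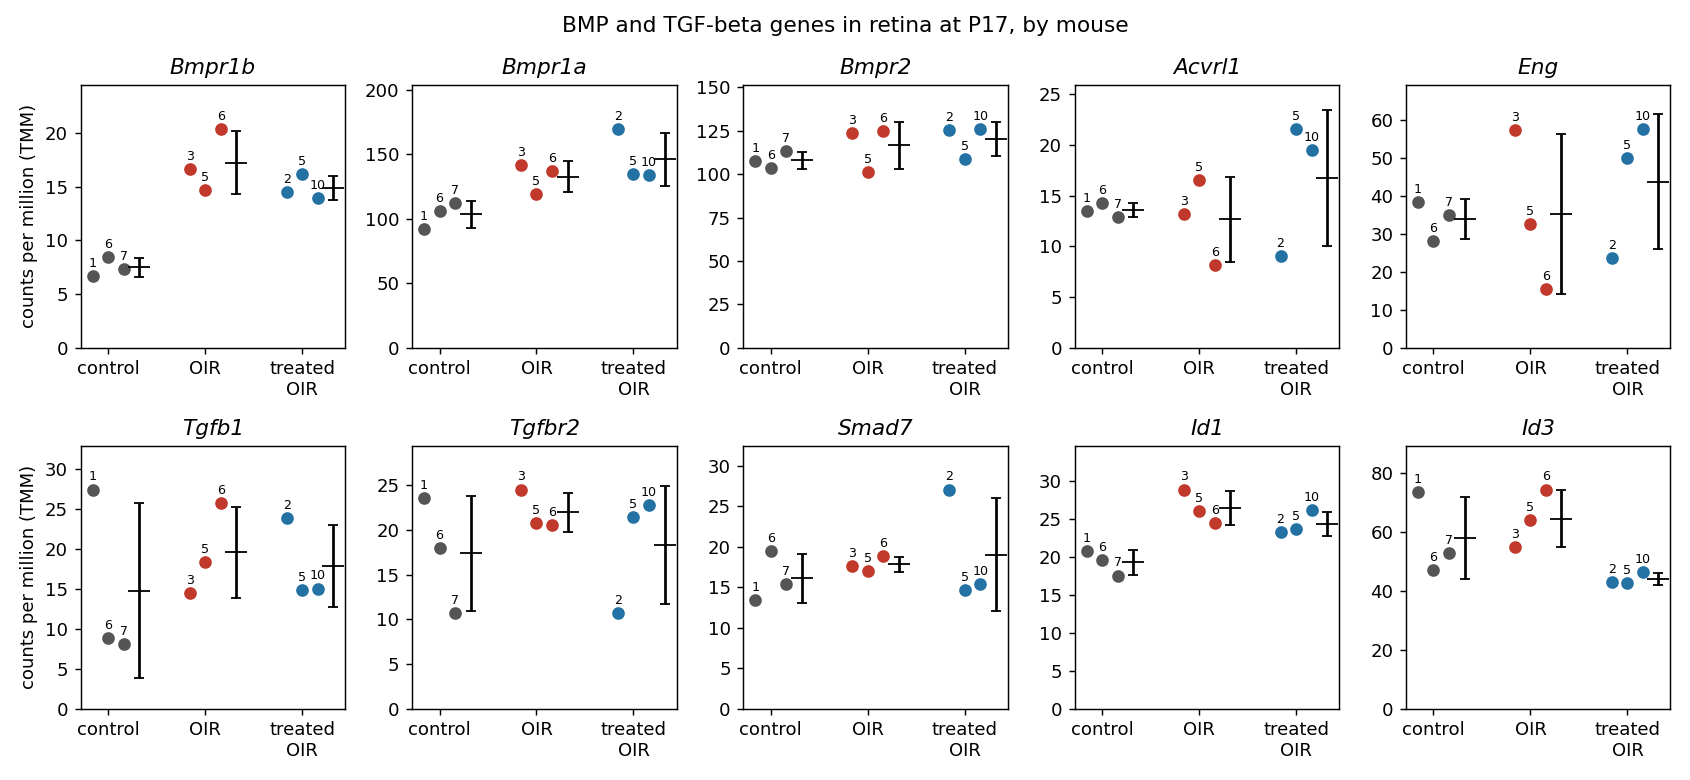
Each panel plots 1 of the 10 genes, with CPM (TMM scaled, linear axis from 0) on the y axis and the 3 groups on the x axis. Points are mice with their label numbers, and bars are the mean and SD of 3 mice. All OIR and treated OIR points lie above all control points for Bmpr1b, Bmpr1a, and Id1, and all treated OIR points lie below the other 6 for Id3.

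Between OIR and control retina, 1 of the 10 genes had an adjusted p below 0.05, and it rose, against 0.433% of all genes tested that rose and 0.507% that fell. This gene, Bmpr1b, is among those the study picked as upregulated from these same mice, so its count is not independent evidence. Without adjustment, 3 of the 10 genes passed p below 0.05 upward (Bmpr1b, Bmpr1a, and Id1) and 0 downward, where 11.1% of all genes passed upward and 12.7% downward. The same 3 genes had higher values in every OIR mouse than in any control mouse, where 15.9% of all genes did so and 17.2% did so in the other direction. The fitted difference was positive for 9 of the 10 genes, with a median log2 fold change of 0.24, against 0.03 over all genes.

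Between treated OIR and control retina, which share their control mice with the comparison above, 0 of the 10 genes passed an adjusted p below 0.05 in edgeR, where 0.0114% of all genes rose and 0.0114% fell. Unadjusted, Bmpr1b, Bmpr1a, and Id1 passed upward and Id3 downward, 3 and 1 genes, against 10% and 8.6% of all genes. The same 4 genes did not overlap between these groups, where 12.8% of all genes lay higher and 12.2% lower. DESeq2 on all 9 mice and limma-voom each called 2 of the 10 genes in this comparison (Bmpr1b and Bmpr1a), and DESeq2 on the 6 mice compared called 1 (Bmpr1b). Higher calls made up 2.26% of all genes with DESeq2 on all 9 mice, 2.62% with limma-voom, and 1.11% with DESeq2 on the 6 mice. Between treated OIR and OIR retina, 0 of the 10 genes passed in edgeR, DESeq2, or limma-voom. The background of that comparison was 0.0% of all genes in each direction in edgeR, and in either direction it was 0.178% with DESeq2 on all 9 mice, 0.433% with DESeq2 on the 6 mice compared, and 0.0057% with limma-voom. Unadjusted, only Id3 passed, downward, 1 gene where 2.3% of all genes did so and 2.39% passed upward. Values without overlap were found for Id3 alone, lower in treated OIR, where 5.39% of all genes lay lower and 3.74% higher without overlap.

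**Figure D2:**
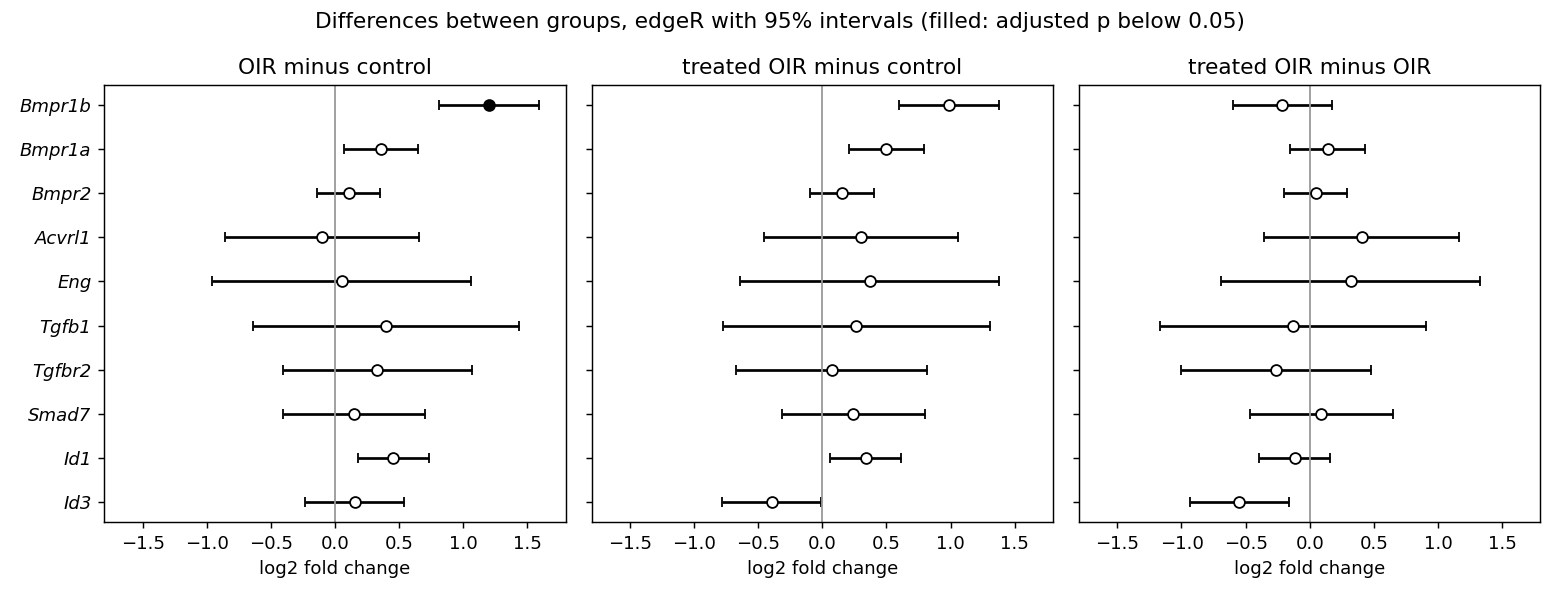
Log2 fold changes of the 10 genes in the 3 comparisons from edgeR's fit to 9 mice, with 95% intervals as bars and a filled point for an adjusted p below 0.05. The only filled point is Bmpr1b in OIR minus control, at 1.20, and the widest intervals belong to Eng, Tgfb1, and Acvrl1.

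Bmpr1b encodes ALK6, a type I receptor for BMP and GDF ligands that is best known from cartilage, ovary, and developing retina. The gene (ENSMUSG00000052430) lies on the minus strand of chromosome 3 at 141837136 to 142169425 on GRCm38. Control mice had 6.67, 8.42, and 7.35 CPM (114 to 191 counts), OIR mice 16.6, 14.6, and 20.4 CPM (311 to 453 counts), and treated OIR mice 14.5, 16.1, and 13.9 CPM (229 to 271 counts). The control mice were all below the other 6, and the OIR and treated OIR values overlapped. Bmpr1b rose by 1.20 on the log2 scale in OIR (SE 0.17, 95% interval 0.81 to 1.59, edgeR adjusted p = 0.0407), a 2.30-fold difference. In treated OIR the difference from control was 0.99 (SE 0.17, interval 0.60 to 1.38) and did not pass (adjusted p = 0.102). Treated OIR minus OIR was -0.21 (SE 0.17, interval -0.60 to 0.17, adjusted p = 0.9998). Among mice of the same sex, OIR exceeded control by 1.30 in females (1 mouse each) and by 1.12 in males (2 mice each).

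Markers of other retinal cells also differed between the groups. The summed level of 3 astrocyte markers was 81.4 to 244 CPM in control, 290 to 742 CPM in OIR, and 136 to 451 CPM in treated OIR mice. That of 4 bipolar cell markers was 704 to 812, 905 to 1023, and 749 to 768 CPM, so that for both lists the OIR values were higher than any control value while the treated OIR mice overlapped the control mice. The 5 ganglion cell markers summed to 762 to 1105, 60.6 to 387, and 26.9 to 654 CPM, lower in every OIR and treated OIR mouse than in any control mouse. Müller glia markers (6 genes) summed to 3692 to 5091, 4873 to 5500, and 3105 to 4692 CPM, so that control overlapped both other groups and every treated OIR mouse lay below every OIR mouse. Single markers did not all follow the sums. Every treated OIR mouse lay above every control mouse for Slc1a3 of Müller glia (232 to 286 against 151 to 178 CPM) and below for Kcnj10. Of the astrocyte markers, Pdgfra was higher (30.2 to 52.0 against 22.1 to 28.6 CPM), while Gfap and Pax2 overlapped. The part of these cells in the values of Bmpr1b, Bmpr1a, and Id1 was not tested.

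In edgeR on all 9 mice the call for Bmpr1b was close to the threshold. Among the alternatives in tool, scaling, filter, and covariate, the call was lost only with sex as a covariate, and the adjusted p elsewhere ran from 1.24e-06 (DESeq2 on all 9 mice) to 0.04998 (total counts alone). With sex the adjusted p was 0.0722 at the same log2 fold change of 1.20. Leaving out 1 mouse kept the log2 fold change between 1.06 and 1.31, with an adjusted p from 0.00587 to 0.163, and the call remained only without treated OIR mouse 2 or mouse 10. It was lost without control mouse 1, 6, or 7, without OIR mouse 3, 5, or 6, and without treated OIR mouse 5 (adjusted p = 0.0802). In each edgeR fit that lost it, with sex or without 1 of these 7 mice, 0 genes of the whole table passed, and 2845 to 4140 had an unadjusted p below 0.05.

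Bmpr1a encodes ALK3, the broadly expressed type I receptor of the same branch, and lies on chromosome 14 at 34410734 to 34503341 (ENSMUSG00000021796). It had 92.1, 106, and 112 CPM in control, 142, 119, and 137 CPM in OIR, and 170, 135, and 134 CPM in treated OIR mice. Control mice were again the 3 lowest, and the other groups overlapped. The log2 fold change was 0.36 in OIR (SE 0.13, interval 0.07 to 0.65, edgeR adjusted p = 0.142) and 0.50 in treated OIR over control (SE 0.13, interval 0.21 to 0.79, adjusted p = 0.136), so that neither passed. Treated OIR minus OIR was 0.14 (interval -0.15 to 0.43). OIR exceeded control by 0.62 between females (1 mouse each) and by 0.23 between males (2 mice each). The unadjusted call of Bmpr1a in OIR minus control was lost without control mouse 1, OIR mouse 3, or OIR mouse 6. Its highest value, 170 CPM, came from treated OIR mouse 2, the mouse with many lens transcripts.

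Since both are type I receptors of the BMP branch, their proportion was also computed. On the RPKM scale Bmpr1b made up 7.16%, 7.79%, and 6.52% of the sum of Bmpr1a and Bmpr1b in control mice 1, 6, and 7. The share was 11.1%, 11.6%, and 13.6% with OIR and 8.35%, 11.3%, and 9.98% with OIR and treatment. All control mice were below all others, and OIR mouse 3 (11.1%) lay just under treated OIR mouse 5 (11.3%). This share was defined after the levels were seen and was not tested.

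The sequence upstream of Bmpr1b is shown because this is the gene that passed the test, and that of Eng because Eng is the endothelial gene of the set with the widest spread. Each run is the 250 bases before a transcript start in RefSeq (GRCm38.p6), written 5′ to 3′ on the gene's own strand, and capitals mark CAGAC or its reverse complement, the box bound by SMAD3 and SMAD4. The Bmpr1b run, chr3:141982265-141982514 on the minus strand, belongs to 1 of 3 starts listed for the gene, inside the span of the gene and outside its exons. The Eng run, chr2:32646345-32646594 on the plus strand, ends where the gene begins.
Bmpr1b: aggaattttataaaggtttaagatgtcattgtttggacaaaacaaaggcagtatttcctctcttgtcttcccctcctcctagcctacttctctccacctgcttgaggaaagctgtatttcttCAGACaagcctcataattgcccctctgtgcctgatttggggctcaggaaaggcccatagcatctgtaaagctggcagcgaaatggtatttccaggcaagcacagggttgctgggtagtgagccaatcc
Eng: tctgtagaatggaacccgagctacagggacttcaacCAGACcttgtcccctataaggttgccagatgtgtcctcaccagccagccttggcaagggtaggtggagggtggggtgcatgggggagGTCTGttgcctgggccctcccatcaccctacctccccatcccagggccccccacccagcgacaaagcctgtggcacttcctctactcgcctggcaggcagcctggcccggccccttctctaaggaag

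Bmpr1b held 1 CAGAC match, 128 bases before the start, and Eng held 1 on each strand, 214 and 127 bases before it. Such matches are common, since 42.2% of 32851 promoter windows of this length hold one on either strand. The BMP-responsive letters GGCGCC were found once in the window of Bmpr1a and once in that of Bmpr2, against 9.59% of all windows, and GTCTAGAC was in none of the windows read for 7 of the 10 genes (0.167% of all windows). For the HIF core, ACGTG was in none of these 7 windows (16.6% of all windows) and GCGTG was in those of Id3, Tgfb1, and Tgfbr2 (28.2% of all windows). The windows of Bmpr2 and Id3 lay wholly, with all 250 bases, in exons of their own gene. That of Bmpr1a lay inside the span of its gene, with 141 bases in its exons. No searched motif contains another, and a match is a string of letters, not a shown binding site.

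The type II receptors were steady or scattered. Bmpr2 (ENSMUSG00000067336, chromosome 1 at 59763400 to 59879014), the type II BMP receptor that is mutated in heritable pulmonary arterial hypertension, had 108, 103, and 113 CPM in control, 124, 101, and 125 CPM in OIR, and 125, 109, and 126 CPM in treated OIR mice. The groups overlapped, and the narrow intervals bound the log2 difference to -0.14 to 0.35 in OIR minus control (estimate 0.11, edgeR adjusted p = 0.586), -0.09 to 0.40 in treated OIR minus control (0.15, adjusted p = 0.469), and -0.20 to 0.29 in treated OIR minus OIR (0.05, adjusted p = 0.9998). Tgfbr2 (ENSMUSG00000032440, chromosome 9 at 116084293 to 116175360), the type II receptor for TGF-beta ligands, had 23.5, 18.0, and 10.7 CPM in control, 24.5, 20.8, and 20.6 CPM in OIR, and 10.7, 21.5, and 22.8 CPM in treated OIR mice. Control mouse 7 and treated OIR mouse 2 shared the lowest value, and no comparison of Tgfbr2 passed (log2 0.33, adjusted p = 0.576 in OIR minus control).

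Eng and Acvrl1 did not separate the groups, because mice within OIR and within treated OIR differed widely. Eng (ENSMUSG00000026814, chromosome 2 at 32646595 to 32682669) had 38.4, 28.0, and 35.1 CPM in control mice 1, 6, and 7. OIR mice 3, 5, and 6 had 57.4, 32.6, and 15.4 CPM, whereas the treated mice had 23.7, 49.9, and 57.7 CPM. The lowest mice, OIR 6 and treated OIR 2, were below every control mouse, and the highest, OIR 3 and treated OIR 10, above every control mouse. The log2 difference of Eng was 0.05 in OIR minus control (SE 0.45, interval -0.96 to 1.06, edgeR adjusted p = 0.961) and 0.32 in treated OIR minus OIR (SE 0.45, interval -0.69 to 1.33). Without OIR mouse 3 the first became -0.50, and without OIR mouse 6 it became 0.41. Eng overlaps Fpgs on the opposite strand, whose own count was at most 395 in a mouse, and whether counting used strand is not given in the sources used here.

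Acvrl1 (ENSMUSG00000000530, chromosome 15 at 101128522 to 101145336) had 13.5, 14.3, and 12.9 CPM in control, 13.2, 16.5, and 8.19 CPM with OIR, and 9.07, 21.6, and 19.5 CPM in treated OIR mice. OIR mouse 6 and treated OIR mouse 2 were again the lowest, and the treated OIR mice spanned a wider range than the other groups. The log2 difference was -0.10 in OIR minus control (interval -0.86 to 0.65, edgeR adjusted p = 0.886) and 0.40 in treated OIR minus OIR (interval -0.35 to 1.16, adjusted p = 0.9998). Without OIR mouse 6 the first was 0.13.

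Endothelial markers differed between the same mice, and a sum and a mean of them did not rank the mice alike. The 12 markers (Pecam1, Cdh5, Cldn5, Tie1, and others) were detected in every mouse, and their summed level was 363 to 417 CPM in control, 501 to 657 CPM in OIR, and 408 to 622 CPM in treated OIR mice. Their mean log2 CPM, set against the control mean, was -0.70 in OIR mouse 6 and -0.61 in treated OIR mouse 2. It was 0.62 in OIR mouse 3, 0.12 in OIR mouse 5, 0.80 in treated OIR mouse 5, and 0.72 in treated OIR mouse 10. In OIR mouse 6, 10 of the 12 markers were below every control mouse, yet the sum of 501 CPM was above every control mouse. Its Kdr (281 CPM) and Flt1 (115 CPM), the receptors for VEGF, were the highest of the 9 mice, against 101 to 125 CPM and 56.0 to 86.3 CPM in control. In treated OIR mouse 2, 8 markers were below every control mouse, and the sum was 408 CPM with 207 CPM of Kdr. Eng and Acvrl1 were low in the 2 mice with the lowest marker means and high in treated OIR mice 5 and 10. OIR mouse 3 was an exception for Acvrl1, since its marker mean was high (0.62) and its Acvrl1 (13.2 CPM) lay within the control range. In bulk retina, fewer cells of a type and less RNA per cell cannot be told apart.

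**Figure D3:**
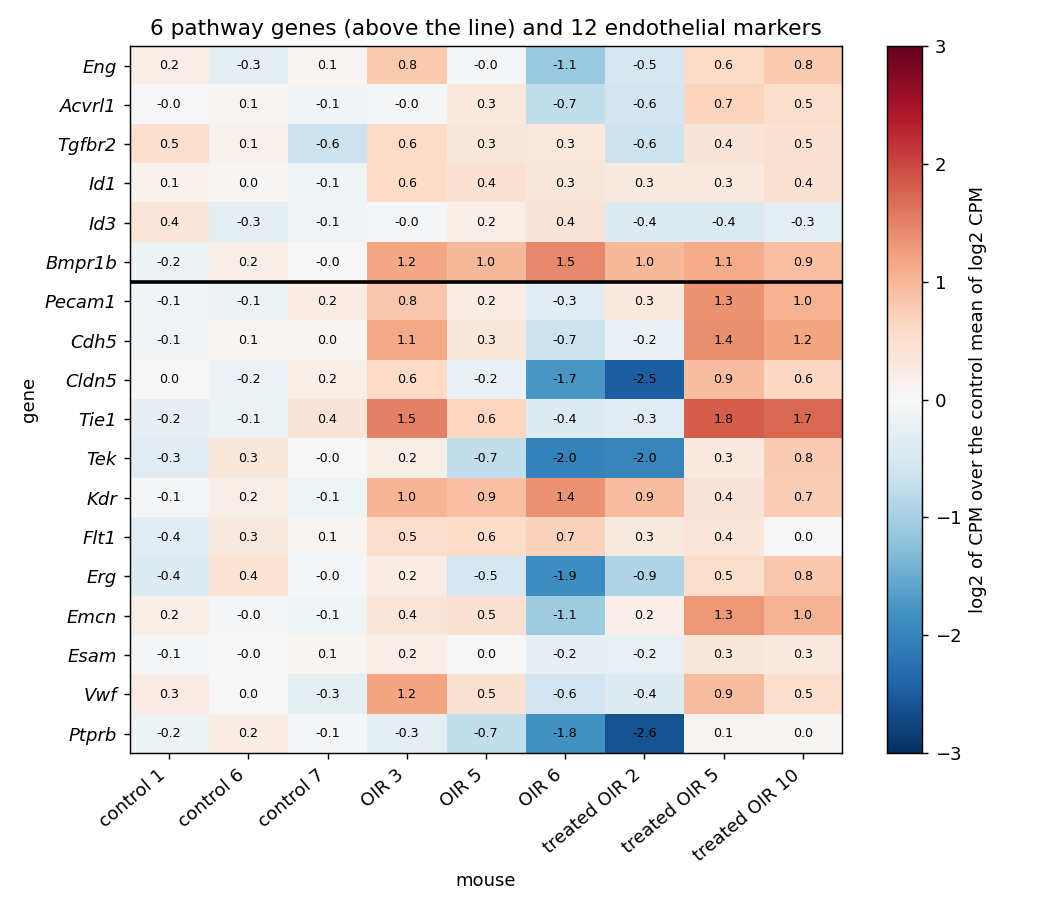
Heat map of 6 of the 10 genes (above the line) and 12 endothelial markers (below it) in the 9 mice, coloured and printed as log2 CPM minus the mean of the 3 control mice. OIR 6 and treated OIR 2 are negative for Eng, Acvrl1, Cldn5, Tek, and Ptprb and positive for Kdr (1.4 and 0.9) and Flt1 (0.7 and 0.3), while Bmpr1b is positive in all 6 OIR and treated OIR mice, at 0.9 or more.

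Relative to the mean of the 12 markers, Eng lay 1.02, 0.38, and 0.75 log2 units above that mean in control, 0.87, 0.55, and 0.30 in OIR, and 0.83, 0.48, and 0.77 in treated OIR mice, so that the groups overlapped. The difference was -0.14 in OIR minus control (exact permutation p = 0.7, two-sided) and 0.12 in treated OIR minus OIR (exact permutation p = 0.7), where 3 mice against 3 cannot go below 0.1. Acvrl1 on this scale differed by -0.17 in OIR minus control (exact permutation p = 0.8) and by 0.07 in treated OIR minus OIR (exact permutation p = 0.9). Leaving out 1 mouse turned the sign of each of these differences, as given with the alternatives.

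Tgfb1 (ENSMUSG00000002603, chromosome 7 at 25687002 to 25705077) encodes the TGF-beta1 ligand, which microglia, vascular cells, and glia can make. It had 27.4, 8.82, and 8.06 CPM in control mice 1, 6, and 7, 14.5, 18.3, and 25.7 CPM with OIR, and 23.8, 14.8, and 15.0 CPM in treated OIR mice. Control mouse 1 had the highest value of all, and the other 2 control mice had the lowest. The log2 difference was 0.40 in OIR minus control (SE 0.46, interval -0.64 to 1.43, edgeR adjusted p = 0.641), and without control mouse 1 it was 1.21 (adjusted p = 0.108). Between mice of the same sex it was -0.91 in females (1 mouse each, control mouse 1 among them) and 1.35 in males (2 mice each). The 8 microglia markers, all detected in every mouse, summed to 81.4 to 330 CPM in control, with the highest value in mouse 1, to 169 to 340 CPM in OIR, and to 93.5 to 117 CPM in treated OIR mice. Thbs1, a pathway gene named outside the rule given below, was also highest in control mouse 1 (173 CPM against 22.2 to 52.2 CPM). The part of microglia or of Thbs1 in the Tgfb1 value was not tested.

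Smad7 (ENSMUSG00000025880), the inhibitory SMAD that TGF-beta itself induces, had 13.4, 19.5, and 15.3 CPM in control, 17.6, 17.1, and 18.9 CPM in OIR, and 27.1, 14.7, and 15.4 CPM in treated OIR mice. The OIR values lay within the range of the control values, and the highest was treated OIR mouse 2, the mouse with many lens transcripts. No comparison of Smad7 passed (log2 0.15, edgeR adjusted p = 0.754 in OIR minus control). In treated OIR minus control the difference was 0.24 (SE 0.25), and it was -0.09 without treated OIR mouse 2.

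Id1 and Id3 encode inhibitors of helix-loop-helix transcription factors and are immediate targets of BMP receptors, ALK1 included. Id1 (ENSMUSG00000042745, chromosome 2 at 152736251 to 152737410) had 20.7, 19.6, and 17.5 CPM in control, 28.9, 26.0, and 24.5 CPM in OIR, and 23.3, 23.6, and 26.2 CPM in treated OIR mice. Control mice were the 3 lowest, and the other groups overlapped. The log2 difference of Id1 was 0.46 in OIR minus control (SE 0.12, interval 0.18 to 0.73, edgeR adjusted p = 0.0867), 0.34 in treated OIR minus control (SE 0.12, adjusted p = 0.213), and -0.12 in treated OIR minus OIR (interval -0.39 to 0.16). DESeq2 on all 9 mice (adjusted p = 0.0237) and limma-voom (adjusted p = 0.0281) put the first below the threshold, where these tools called 4.38% and 5.23% of all genes higher. Among mice of the same sex, OIR exceeded control by 0.48 in females and 0.44 in males.

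Id3 (ENSMUSG00000007872, chromosome 4 at 136143497 to 136145755) showed a different order. It had 73.5, 47.1, and 52.9 CPM in control, 55.0, 63.8, and 74.3 CPM in OIR, and 43.1, 42.7, and 46.3 CPM in treated OIR mice. The treated OIR mice were the 3 lowest, while OIR and control overlapped. The log2 difference was 0.15 in OIR minus control (SE 0.17, edgeR adjusted p = 0.625), -0.39 in treated OIR minus control (SE 0.17, interval -0.78 to -0.01, adjusted p = 0.262), and -0.55 in treated OIR minus OIR (SE 0.17, interval -0.94 to -0.16, adjusted p = 0.984). Across all alternatives the last difference stayed between -0.65 and -0.43, and the lowest adjusted p was 0.143, with DESeq2 on the 6 mice compared. Between mice of the same sex it was -0.36 in females (2 treated, 1 OIR) and -0.57 in males (1 treated, 2 OIR). For treated OIR minus control the same-sex differences were -0.78 in females (2 treated, control mouse 1 alone) and -0.11 in males (1 treated, 2 control). The unadjusted call of Id3 in treated OIR minus control was lost in several alternatives. Among them were control mouse 1 left out, sex as a covariate, limma-voom, and total counts alone. Microglia markers were lower in the same direction, with 6 of 8 lower in every treated OIR than in any OIR mouse, as were 3 of 4 bipolar cell markers and 2 of 6 Müller glia markers. The sum of the 6 Müller glia markers was also lower in every treated OIR than in any OIR mouse, at 3105 to 4692 against 4873 to 5500 CPM. The part of these cells in the Id3 values was not tested.

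In RPKM, Id1 amounted to 43.5%, 64.2%, and 51.2% of Id3 in control, 81.1%, 62.9%, and 50.8% in OIR, and 83.5%, 85.3%, and 87.5% in treated OIR mice. The treated OIR mice were the 3 highest and differed little among themselves, while the other groups overlapped. This ratio was also chosen after the values were seen and carries no test. Relative to the endothelial marker mean, Id1 differed by 0.44 log2 units in OIR minus control (exact permutation p = 0.2) and by -0.41 in treated OIR minus OIR (exact permutation p = 0.5). Id3 on that scale differed by 0.16 (exact permutation p = 0.8) and by -0.83 (exact permutation p = 0.3). Id3 on that scale was 0.81, 1.52, and 2.57 in OIR and 1.69, 0.26, and 0.45 in treated OIR mice, and these groups overlapped. The marker mean used as the reference itself ranged from -0.70 to 0.80 against control in these mice. The part of endothelial cells in the Id3 values was not tested.

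The remaining genes of the pathway were described from a list of 77 genes in 6 groups by role, of which 76 were in the table and 66 passed the filter. No gene of this list passed an adjusted p below 0.05 in the main edgeR fit to all 9 mice, in any comparison. In OIR minus control, 16 passed upward and 9 downward unadjusted (background 11.1% and 12.7%). The median log2 fold change was 0.30, against 0.03 over all genes. DESeq2 on all 9 mice called 9 higher and 4 lower, DESeq2 on the 6 mice compared 13 and 6, edgeR on those 6 mice 7 and 3, and limma-voom 10 and 5. The same tools, in that order, called 4.38%, 5.64%, 2.88%, and 5.23% of all genes higher and 6.94%, 9.99%, 7.44%, and 7.91% lower. Of the genes named below, Chrdl1, Hey2, Ltbp4, Tgfb3, and Tgfbr1 were called by each of these tools in OIR minus control. Acvr2b, Fstl3, Klf10, Smad6, and Smad9 were called by some of them, and Bmp6 and Gdf10 by none. In treated OIR minus control, 14 and 2 of the 66 passed unadjusted in the main fit (background 10% and 8.6%). There DESeq2 on all 9 mice called 2 higher and 2 lower (842 of 17460 genes over all). DESeq2 on the 6 mice compared called 2 and 0 (374 of 16821), and limma-voom 3 and 2 (926 of 17540). Without treated OIR mouse 10, edgeR called 1 lower (6 of 18072). In treated OIR minus OIR, 2 and 3 of the 66 passed unadjusted in the main fit (background 2.39% and 2.3%). DESeq2 and limma-voom called none of the list in treated OIR minus OIR, where they called 0.433% of all genes or fewer. Other edgeR settings called genes of this list in OIR minus control. With no filter, 5 were higher and 1 was lower (532 of 30341 genes over all). With 10 counts in every mouse 3 were higher (376 of 14762), and with upper-quartile scaling 3 (230 of 17540). Without treated OIR mouse 2, which is outside this comparison, 8 were higher and 3 lower (2272 of 18116). Without treated OIR mouse 10, only Tgfb3 passed, lower (196 of 18072).

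Ligands of the BMP and GDF family held 0 genes higher and 3 lower (unadjusted) of 10 tested in OIR minus control (background 11.1% and 12.7%). Bmp6, which endothelial cells secrete and which drives hepcidin in the liver, had 4.09, 3.32, and 3.29 CPM in control, 2.30, 1.72, and 0.900 CPM in OIR, and 2.41, 3.07, and 4.68 CPM in treated OIR mice. OIR mice were the 3 lowest, with a log2 difference of -1.12 from control (SE 0.39, edgeR adjusted p = 0.133) and 1.05 for treated OIR minus OIR (SE 0.39, adjusted p = 0.9998). Bmp6 overlaps Txndc5 on the opposite strand, which had up to 2615 counts. Gdf10 showed the same order at low levels, with 3.69, 1.86, and 1.35 CPM in OIR against 3.81 to 5.03 CPM in control and 3.87 to 6.63 CPM in treated OIR mice (log2 -0.99, adjusted p = 0.170, and 1.11, adjusted p = 0.990). Without OIR mouse 6 the treated OIR minus OIR difference was 0.75 for Bmp6 and 0.84 for Gdf10.

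Among 10 TGF-beta and activin ligands and latent proteins, 1 was higher and 2 were lower unadjusted in OIR (background 11.1% and 12.7%). Tgfb3, a TGF-beta ligand of neurons and glia, had 43.2, 36.6, and 44.3 CPM in control and 14.2, 13.7, and 13.3 CPM in OIR mice. These groups were far apart and each was tight, and the log2 difference was -1.59 (SE 0.35, edgeR adjusted p = 0.0609). Treated OIR mice had 11.5, 12.9, and 32.4 CPM, with mouse 10 closest to the control values. Tgfb3 overlaps Ttll5 on the opposite strand, with up to 1290 counts. Ltbp4, which stores latent TGF-beta in the matrix, differed by -1.12 in OIR (SE 0.36, adjusted p = 0.117). DESeq2 and limma-voom put the differences of Tgfb3 and Ltbp4 in OIR minus control below the threshold.

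The 7 receptors tested had 2 higher and 1 lower unadjusted in OIR (background 11.1% and 12.7%). Tgfbr1 (ALK5), the type I partner of Tgfbr2, had 30.9, 35.3, and 30.3 CPM in control, 44.1, 45.3, and 54.3 CPM in OIR, and 44.6, 39.8, and 42.4 CPM in treated OIR mice. Every mouse with OIR lay above every control mouse, with a log2 difference of 0.57 (SE 0.11, edgeR adjusted p = 0.0562) in OIR and 0.39 (SE 0.11, adjusted p = 0.164) in treated OIR. DESeq2 and limma-voom put the first below the threshold. Acvr2b, a type II receptor for activins and BMPs, differed by 0.77 in OIR (SE 0.29, adjusted p = 0.150).

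Of 7 SMAD genes, 4 were higher and 1 was lower unadjusted in OIR (background 11.1% and 12.7%). Their median log2 fold change was 0.46, against 0.03 over all genes. Smad6, the inhibitory SMAD of the BMP branch, had 5.59, 4.41, and 4.19 CPM in control, 6.79, 8.16, and 11.4 CPM in OIR, and 12.0, 5.46, and 6.84 CPM in treated OIR mice (log2 0.89, SE 0.33, edgeR adjusted p = 0.147 in OIR). Smad9, a BMP-activated SMAD, stood on the other side, with 6.91, 7.78, and 13.1 CPM in control and 6.10, 3.82, and 3.10 CPM in OIR mice (log2 -1.09, SE 0.40, adjusted p = 0.146).

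Of 18 inhibitors tested, 7 were higher and 1 was lower unadjusted in OIR (background 11.1% and 12.7%). Their median log2 fold change was 0.42, against 0.03 over all genes. Chrdl1, a secreted BMP antagonist, had 22.0, 27.4, and 17.0 CPM in control, 41.1, 46.4, and 82.7 CPM in OIR, and 29.0, 27.6, and 28.2 CPM in treated OIR mice. The OIR mice were the 3 highest and the control mice the 3 lowest, with treated OIR mice between them. The log2 difference was 1.36 in OIR minus control (SE 0.27, edgeR adjusted p = 0.0543) and -1.01 in treated OIR minus OIR (SE 0.27, interval -1.61 to -0.41, adjusted p = 0.984). Without OIR mouse 6 these were 0.98 and -0.63. DESeq2 on all 9 mice (adjusted p = 2.2e-04) and limma-voom (adjusted p = 0.0204) put the Chrdl1 difference in OIR minus control below the threshold. These tools called 4.38% and 5.23% of all genes higher. Fstl3, which binds activins, differed by 1.37 in OIR (SE 0.58, adjusted p = 0.192), and its groups overlapped.

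Of 14 further targets, 2 were higher and 1 was lower unadjusted in OIR (background 11.1% and 12.7%). Hey2, a target of Notch and of ALK1, had 12.9, 12.5, and 12.8 CPM in control, 20.1, 22.5, and 30.1 CPM in OIR, and 22.8, 16.1, and 14.5 CPM in treated OIR mice (log2 0.93, SE 0.21, edgeR adjusted p = 0.0623 in OIR minus control). DESeq2 and limma-voom put this difference below the threshold. Klf10, an early TGF-beta target, differed by 1.09 in OIR (SE 0.36, adjusted p = 0.121). For both genes every mouse with OIR, treated or not, lay above every control mouse.

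**Figure D4:**
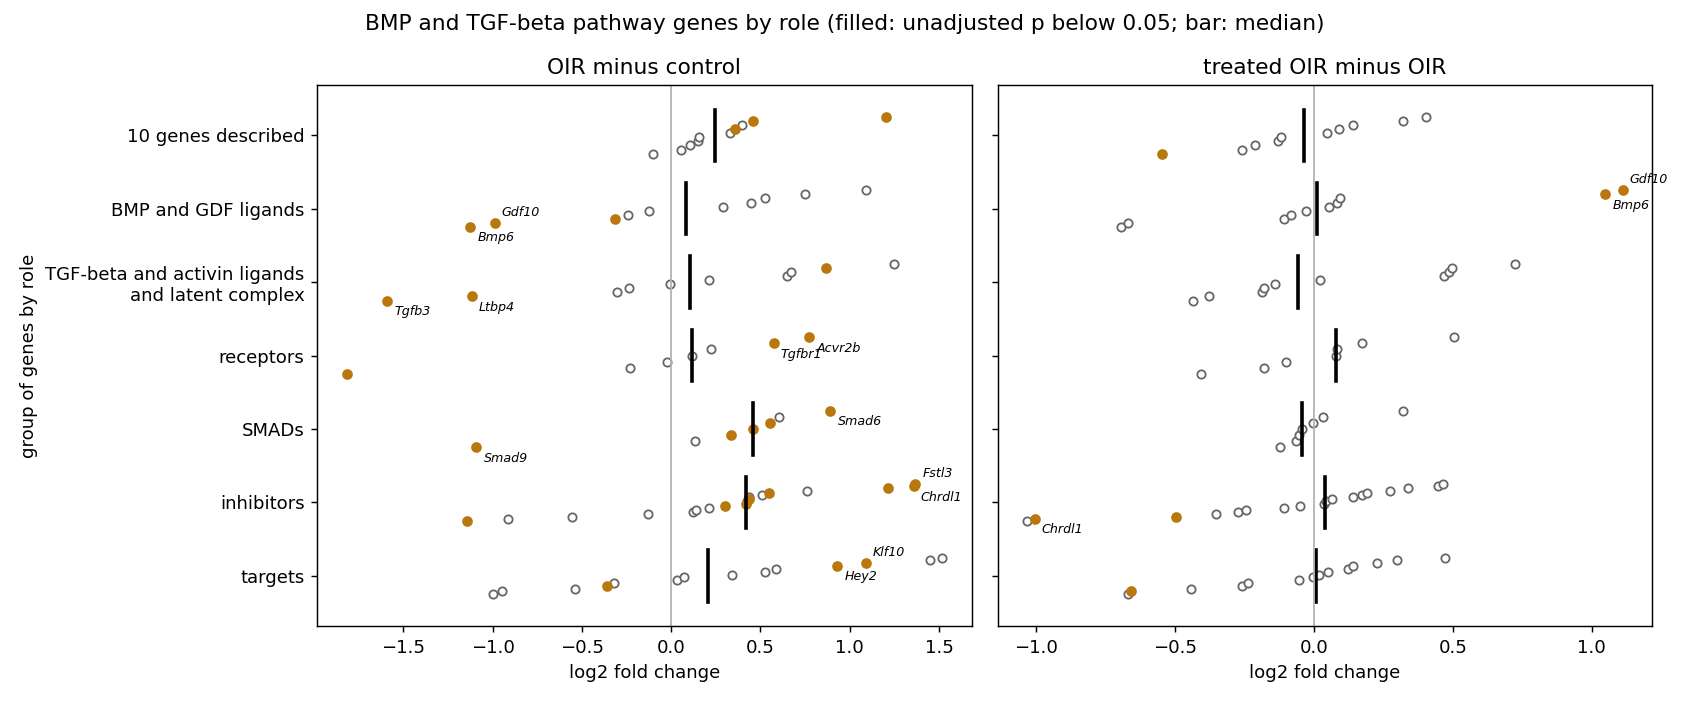
Log2 fold changes of the 10 genes and of the 6 role groups of the wider pathway list in OIR minus control (left) and treated OIR minus OIR (right), 1 point per gene, with a filled point for an unadjusted edgeR p below 0.05 and a bar at the group median. SMADs (median 0.46) and inhibitors (0.42) lie mostly to the right on the left side, where the median of all genes is 0.03. On the right side Bmp6 and Gdf10 lie above 1 and Chrdl1 near -1.

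Genes with the most similar pattern over the 9 mice were sought among 13978 genes, by the root mean square difference of log2 CPM centred on each gene's mean. For Bmpr1b they were Utp14b (0.15), Adamts3 (0.15), and Gulp1 (0.18). For Eng they were Gimap6 (0.14), Tnfaip8l1 (0.16), and Robo4 (0.18), of which Robo4 is an endothelial receptor. For Id1 they were Dcun1d3 (0.07), Gpatch2 (0.08), and Myef2 (0.08).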

How the data were processed

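The authors deposited raw counts per gene for neurosensory retina, as whole numbers without normalization, with a gene length for each of 54532 genes. The submitters' processing notes name CASAVA and HISAT without versions, and the counter, the annotation, and strandedness are not given in the sources used here. Of 54409 gene identifiers found in GENCODE M21, 98.3% had the same position, so coordinates are on GRCm38. No 2 columns were copies of each other. RPKM was computed from TMM-scaled CPM and the deposited lengths.

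Counts were fitted with edgeR 4.0.16 in R 4.3.3 (TMM, filterByExpr by group, 17540 genes, 1 mean per group over all 9 mice, quasi-likelihood test, prior count 2 for log2 CPM). The fit was tested on simulated counts with 200 changed genes. The text of the paper read here does not name its test for RNA-Seq. With 3 mice per group, precision is set by the spread between mice. Alternatives were DESeq2 1.42.0, limma 3.58.1 (voom with sample quality weights), edgeR on the 2 groups compared, other scalings and filters, crystallin genes left out, sex as a covariate, a prior count of 0.5, and each mouse left out. Python 3.11.15, pandas 2.3.3, scipy 1.17.1, and matplotlib 3.10.9 were used.

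Besides the 10 genes, those named were, per role group, the 2 largest differences in OIR minus control with an unadjusted p below 0.05 and a mean log2 CPM of at least 1, the 3 such genes over the list in treated OIR minus OIR, and the 3 nearest patterns for Bmpr1b, Eng, and Id1. Thbs1 was named outside this rule. Genes and lists were chosen with earlier results of these data known.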

Additional observations from a re-analysis of the deposited data

How the results depend on the processing

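Of 600 fold changes of the 10 genes recomputed under 20 alternatives, 566 kept their direction and their side of the threshold, 19 changed sign, 8 lost and 7 gained a call. All 8 losses were of Bmpr1b in OIR minus control, 7 with 1 mouse left out and 1 with sex as a covariate. That was the only call of the main fit, so no other result had a call to lose. In OIR minus control the number of the 10 genes called was 1, and it was 2 with DESeq2 on all 9 mice and with limma-voom, 0 with sex as a covariate, and 0 to 1 when 1 mouse was left out. In treated OIR minus control it was 0, and it was 2 with DESeq2 on all 9 mice, 1 with DESeq2 on the 6 mice compared, and 2 with limma-voom. Over all genes in OIR minus control, 165 were called, and from 0 (sex as a covariate, or 1 of 7 mice left out) to 2683 (DESeq2 on the 6 mice) in the alternatives. Leaving out treated OIR mouse 2, which is outside this comparison, gave 2272.

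Sign changes came in treated OIR minus control for Smad7 (-0.19, limma-voom), and in treated OIR minus OIR for Bmpr2 (-0.0092, limma-voom, and -0.051, total counts alone) and Smad7 (-0.20 and -0.040, the same 2). Total counts alone moved the median of all genes to 0.10 in OIR minus control and to -0.09 in treated OIR minus OIR. With 1 mouse left out, OIR minus control ranged from -0.34 to 0.13 for Acvrl1 and -0.50 to 0.41 for Eng. Treated OIR minus control ranged from -0.027 to 1.08 for Tgfb1, -0.18 to 0.35 for Tgfbr2, and -0.090 to 0.40 for Smad7. Treated OIR minus OIR ranged from -0.048 to 0.11 for Bmpr2, -0.039 to 0.87 for Eng, -0.36 to 0.12 for Tgfb1, -0.45 to 0.038 for Tgfbr2, and -0.22 to 0.25 for Smad7. Relative to endothelial markers, the ranges were -0.31 to 0.012 for Eng, -0.34 to 0.073 for Acvrl1, and -0.31 to 0.57 for Id3 in OIR minus control, and -0.016 to 0.27 for Eng and -0.17 to 0.24 for Acvrl1 in treated OIR minus OIR. The cause was not tested.

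No paired analysis was possible because the replicate numbers are animal numbers and no 2 groups share more than 1 of them. The lowest count among the 10 genes was 114.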
